A study of Mus musculus with 2 samples.

Results

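The genes of cholesterol and fatty acid synthesis were examined in hBACCS2-transfected F2 cells with and without blue light. They are 33 genes chosen by symbol for their known roles, with earlier results of these data known. The roles are SREBP regulators, enzymes of the mevalonate and sterol pathways, sterol transport genes and enzymes of fatty acid synthesis, elongation and desaturation. Of the 33 genes, 30 had a probe set, 1 each, among 19505 named genes of the array. Srebf1, Tm7sf2 and Scd2 were not matched to a probe set in the annotation used. F2 is a vascular endothelial line established from a tumor that arose after UV irradiation, on a mixed BALB/c and C57BL/6 background, and hBACCS2 is a fusion of a plant light sensor with part of STIM1 that opens the Ca2+ channel ORAI1 under blue light. The no blue light culture carried hBACCS2 and was kept without irradiation, whereas the blue light culture carried hBACCS2 and received 470 nm light at about 0.4 mW/mm2, 2 min on and 18 min off, over 4 h. The plasmid was driven by the CAG promoter and entered only part of the cells, so each signal averages cells with and without the switch. The design note of the series describes the control as cells without hBACCS2, and a protocol note common to both samples mentions light, while the sample labels and the paper describe a transfected culture kept dark. The latter reading is used here, and the ratios would have another meaning if a note held.

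Total RNA of each condition was hybridised to 1 Clariom S mouse array, and the signals are given here on a linear scale after the log2 values of the authors were reversed. With 1 array for each condition there is no replicate, no p-value is given, and every ratio is only as precise as a single pair of arrays allows. Neither array is of irradiated cells without hBACCS2, so a response to light in cells lacking the switch was not tested. A ratio is the signal with blue light divided by that without it, and a gene was called past the cutoff at a ratio above 2 or under 0.5 if both arrays read over 24. These limits are those of the study's methods, except that the methods do not say whether 1 or both arrays must pass 24. The array without blue light is called dark and the other lit where signals are listed. Because RNA was taken from whole cultures, less RNA in each cell and fewer cells with that RNA cannot be told apart. Negative control probes had a 95th percentile of 333 without and 324 with blue light, and 17 of the 29 members over 24 exceeded both. Of 12 endothelial markers 11 were over 24, with summed signals of 508775 and 427880, and Cldn5 was under it on both arrays. No measured marker of adipocytes, leukocytes, fibroblasts or mural cells, epithelium or hepatocytes exceeded 100 on both arrays.

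Cells make cholesterol from acetyl-CoA through mevalonate, squalene and lanosterol, and fatty acids from acetyl-CoA through malonyl-CoA. SREBP proteins are transcription factors held in the endoplasmic reticulum as precursors. When membrane sterol is low, the escort protein SCAP carries them to the Golgi, where proteases free the active part, and INSIG proteins hold SCAP back when sterol is plentiful. SREBP-2 acts mainly on sterol genes and SREBP-1 mainly on fatty acid genes, and the nuclear receptor LXR, which binds oxysterols, induces the efflux pumps ABCA1 and ABCG1. In endothelium these pumps pass cholesterol to lipoprotein particles.

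Among the members, the elongase gene Elovl6 stood apart. It was the only member past the cutoff, with a lower signal under blue light, and 28 of the 29 members over 24 stayed within the cutoff. Of all 11695 gene probe sets over 24, 1.37% were lower and 0.958% higher past the cutoff, so a count of 1 among 29 is near the array share. Of the 6 mevalonate enzymes, 5 had ratios above 1, whereas Hmgcs1, the sterol transporters and most fatty acid enzymes had ratios below 1. Of all probe sets over 24, 51.1% had ratios below 1. The differences of members other than Elovl6 are within what other probe sets of like signal showed. The 5 mevalonate enzymes above 1 were also under the 95th percentile of the negative controls on both arrays. With a signal over 100 required on both arrays, 2 mevalonate enzymes were left, with a median log2 ratio of -0.06.

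The start-site windows of 5 members are printed to set sequence beside these values. They are Elovl6, the member past the cutoff, Pmvk and Abca1, the members with the highest ratio and the second lowest ratio, and Hmgcs1 and Insig1, classical sterol-regulated genes whose ratios lay on opposite sides of 1. Each window runs from 250 bases before to 50 bases after an annotated transcript start (RefSeq, GRCm38.p6) and is written 5′ to 3′ on the strand of the gene. Capitals mark matches, on both strands, to an SRE-like motif (TCACNCCAC, after the sterol regulatory element), the CCAAT box bound by NF-Y, the GC box (GGGCGG) bound by SP1 and the E box (CACGTG), and no matches overlapped in these windows. Elovl6 is at chr3:129532136-129532435 (plus strand), Hmgcs1 at chr13:119690101-119690400 (plus), Insig1 at chr5:28071162-28071461 (plus), Pmvk at chr3:89454291-89454590 (plus) and Abca1 at chr4:53159846-53160145 (minus).
Elovl6: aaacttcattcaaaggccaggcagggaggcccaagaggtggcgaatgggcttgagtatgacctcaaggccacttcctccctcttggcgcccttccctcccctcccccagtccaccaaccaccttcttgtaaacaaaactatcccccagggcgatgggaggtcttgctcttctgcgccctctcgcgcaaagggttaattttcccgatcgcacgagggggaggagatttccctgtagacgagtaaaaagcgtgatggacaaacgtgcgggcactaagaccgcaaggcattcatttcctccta
Hmgcs1: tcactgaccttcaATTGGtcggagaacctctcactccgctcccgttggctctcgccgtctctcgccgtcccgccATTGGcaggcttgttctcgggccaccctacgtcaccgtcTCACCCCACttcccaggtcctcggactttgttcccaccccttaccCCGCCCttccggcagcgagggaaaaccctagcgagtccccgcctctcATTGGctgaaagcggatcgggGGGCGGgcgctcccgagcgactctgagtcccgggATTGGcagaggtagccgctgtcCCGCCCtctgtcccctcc
Insig1: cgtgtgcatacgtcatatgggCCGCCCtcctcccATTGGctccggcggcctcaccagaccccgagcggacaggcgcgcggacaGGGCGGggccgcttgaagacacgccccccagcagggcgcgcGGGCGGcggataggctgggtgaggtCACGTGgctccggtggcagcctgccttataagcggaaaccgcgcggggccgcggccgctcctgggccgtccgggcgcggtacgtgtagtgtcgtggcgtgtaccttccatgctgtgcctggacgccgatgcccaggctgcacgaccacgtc
Pmvk: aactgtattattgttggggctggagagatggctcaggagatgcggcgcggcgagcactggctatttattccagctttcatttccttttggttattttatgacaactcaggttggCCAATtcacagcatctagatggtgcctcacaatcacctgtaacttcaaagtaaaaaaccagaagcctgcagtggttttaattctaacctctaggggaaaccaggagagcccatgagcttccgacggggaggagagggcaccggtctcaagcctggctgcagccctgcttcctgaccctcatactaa
Abca1: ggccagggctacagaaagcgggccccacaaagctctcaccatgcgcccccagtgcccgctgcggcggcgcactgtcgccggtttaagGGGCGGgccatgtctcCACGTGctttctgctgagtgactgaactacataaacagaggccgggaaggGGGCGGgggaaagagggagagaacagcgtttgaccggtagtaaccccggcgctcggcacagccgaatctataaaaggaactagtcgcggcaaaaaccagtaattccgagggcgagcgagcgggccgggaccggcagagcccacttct

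The windows differed in what they held. That of Elovl6 had no match to any of the 4 motifs, whereas that of Hmgcs1 had 1 SRE-like motif, 4 CCAAT boxes and 3 GC boxes. Insig1 had 1 CCAAT box, 3 GC boxes and 1 E box, Abca1 had 2 GC boxes and 1 E box, and the window shown for Pmvk had 1 CCAAT box. Windows were found for 25 members, 33 windows in all. These members include Srebf1 and Tm7sf2, which had no probe set, and Insig2, which was under 24. All of these had a CCAAT box and a GC box, so the member shares are not strictly like those of genes over 24. A CCAAT box was in a window of 20 of the 25 member genes, 80.0%, against 41.1% of all 27025 genes with a window and 43.9% of the 8507 genes with a probe set over 24. A GC box was in 21 member genes, 84.0%, against 38.2% and 67.5% in the same order. An E box was in 6, 24%, against 8.09% and 11.9%, and the SRE-like motif was in 1, 4.0%, against 1.44% and 1.40%. The member windows had a median GC content of 62.3%, all windows 52.7% and windows of genes over 24 60.7%. Whether base composition bears on the motif shares was not tested. The CCAAT box was found in members with ratios above 1, such as Pmvk, Mvd and Ebp, and in members with ratios below 1, such as Hmgcs1, Msmo1 and Fasn. A match is a match of letters only, and which start sites F2 cells use was not measured.

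**Figure D1:**
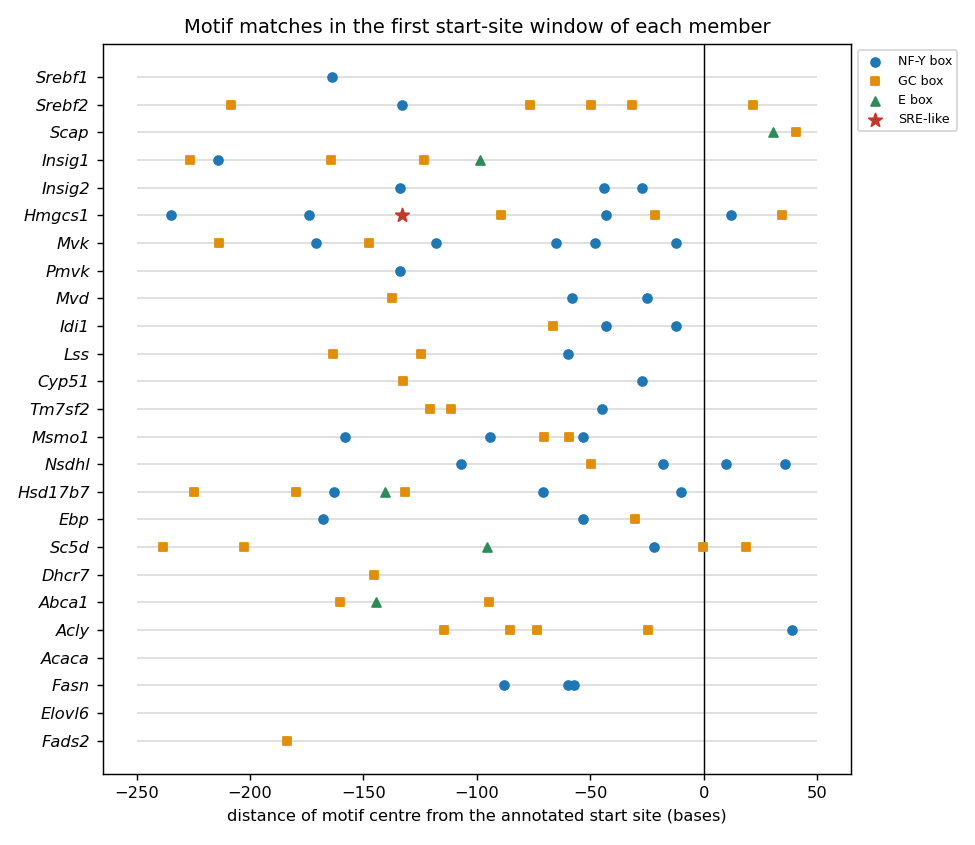
Positions of motif matches in the first listed start-site window of the 25 members with a window; the x axis is the distance of the motif centre from the annotated start site in bases, each row is a gene and each symbol a motif. Most rows of sterol pathway enzymes carry NF-Y (CCAAT) and GC boxes, while the rows of Elovl6 and Acaca are empty.

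For the whole set, 0 of the 29 members over 24 were higher past the cutoff, where 0.958% of the 11695 gene probe sets over 24 were, and 1 was lower, or 3.45%, where 1.37% of the probe sets were. At a ratio above 1.5, 2 members were higher, Pmvk and Fdps, a share of 6.90% against 7.55% of all. At a ratio under 1/1.5, 2 were lower, Elovl6 and Abca1, again 6.90%, against 8.47%. At this smaller fold the member shares lay close to those of the array as a whole. At the main cutoff, 1 lower member among 29 is too few to set the share apart from that of the array. The median log2 ratio of the members was -0.15, with 12 above 0 and 17 below, or 58.6% below. That of all probe sets over 24 was -0.010, with 5669 above 0 and 5978 below, or 51.1% below. As a yardstick in place of replicates, each log2 ratio was set beside the 500 probe sets closest to the gene in mean signal, and 28 of the 29 members lay inside the central 95% of their values. The exception was Elovl6.

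**Figure D2:**
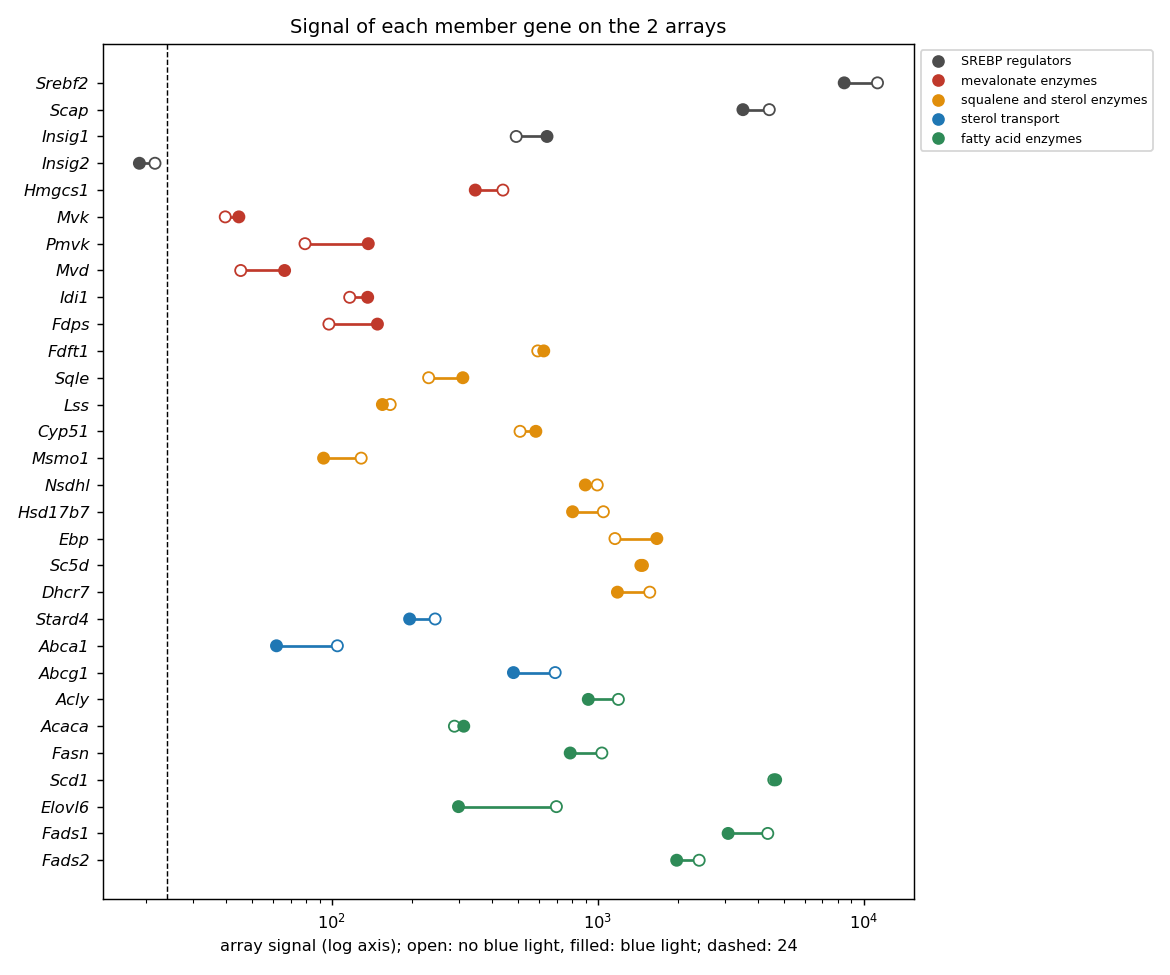
Signal of each of the 30 measured members on a log axis, open circles for the array without blue light, filled circles for the array with blue light, and the dashed line at the cutoff of 24. Elovl6 has the widest gap, from 699 to 299, and Insig2 lies under the cutoff on both arrays.

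Among the regulators, Insig1 was on the other side of 1 from the SREBP and SCAP genes. Srebf2, which encodes SREBP-2, read 11277 on the dark array and 8453 on the lit array, a ratio of 0.750. Scap, the escort gene, read 4417 dark and 3516 lit, a ratio of 0.796. Insig1, a retention protein gene that is itself induced by SREBP, had signals of 493 and 644, a ratio of 1.31. Their log2 ratios of -0.42, -0.33 and 0.38 were at percentiles 14.0, 20.8 and 86.8 of the probe sets of like signal, so none stood out from those probe sets. Insig2, the second retention protein gene, had signals of 21.6 and 18.9, under the cutoff on both arrays, and gets no call. The median log2 ratio of the 3 regulators over 24 was -0.33.

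The mevalonate enzymes had the highest median of the roles, a log2 ratio of 0.39, with 5 of 6 above 0 and 0 past the cutoff. Pmvk, phosphomevalonate kinase, read 79.2 dark and 137 lit. This ratio of 1.73, or 0.79 on the log2 scale, was the highest of all members and lay at percentile 95 of the probe sets of like signal. Fdps, which makes farnesyl diphosphate, had signals of 97.4 and 148, a ratio of 1.52. Mvd, the decarboxylase that yields isopentenyl diphosphate, had signals of 45.4 and 66.4, a ratio of 1.46. Idi1, the isomerase of that product, and Mvk, mevalonate kinase, followed with ratios of 1.17 and 1.13. Hmgcs1, the cytosolic HMG-CoA synthase that feeds the pathway, was the exception, with signals of 440 and 346 and a ratio of 0.787. The 5 enzyme genes with ratios above 1 were all under the 95th percentile of the negative controls on both arrays, and Hmgcs1 alone exceeded it. With a signal over 100 required on both arrays, only Idi1 and Hmgcs1 were left, and their median was -0.06. With 24 added to both signals the ratio of Pmvk was 1.56, that of Fdps 1.42 and that of Mvd 1.30.

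The enzymes from squalene to cholesterol showed no common direction. Of 10 measured, 4 had a log2 ratio above 0 and 6 below, with a median of -0.06 and a range from -0.47 to 0.52. Ebp, the sterol isomerase, read 1160.5 dark and 1668 lit, which gives a ratio of 1.44 and percentile 92.8 among probe sets of like signal. Sqle, squalene epoxidase, a rate-limiting step of the branch, had signals of 231 and 311, a ratio of 1.34. Msmo1, the methylsterol oxidase, had signals of 129 and 93.0, a ratio of 0.722. Steps of this branch thus lay on either side of 1. Fdft1, which joins farnesyl units to squalene, and Cyp51, the lanosterol demethylase, had ratios of 1.05 and 1.15. Lss, which closes the ring to lanosterol, and Nsdhl, which acts beside Msmo1 in the removal of methyl groups, had ratios of 0.935 and 0.902. Hsd17b7, the ketoreductase of the same complex, and Dhcr7, which catalyses the last reduction to cholesterol, had ratios of 0.766 and 0.756. Sc5d, the desaturase before Dhcr7, had signals of 1472 and 1452, and the sign of its log2 ratio of -0.020 turned under quantile and loess scaling. Counted with the mevalonate enzymes, 9 of 16 had log2 ratios above 0 and the median was 0.12, but it was -0.020 over the 11 with a signal over 100 on both arrays.

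**Figure D3:**
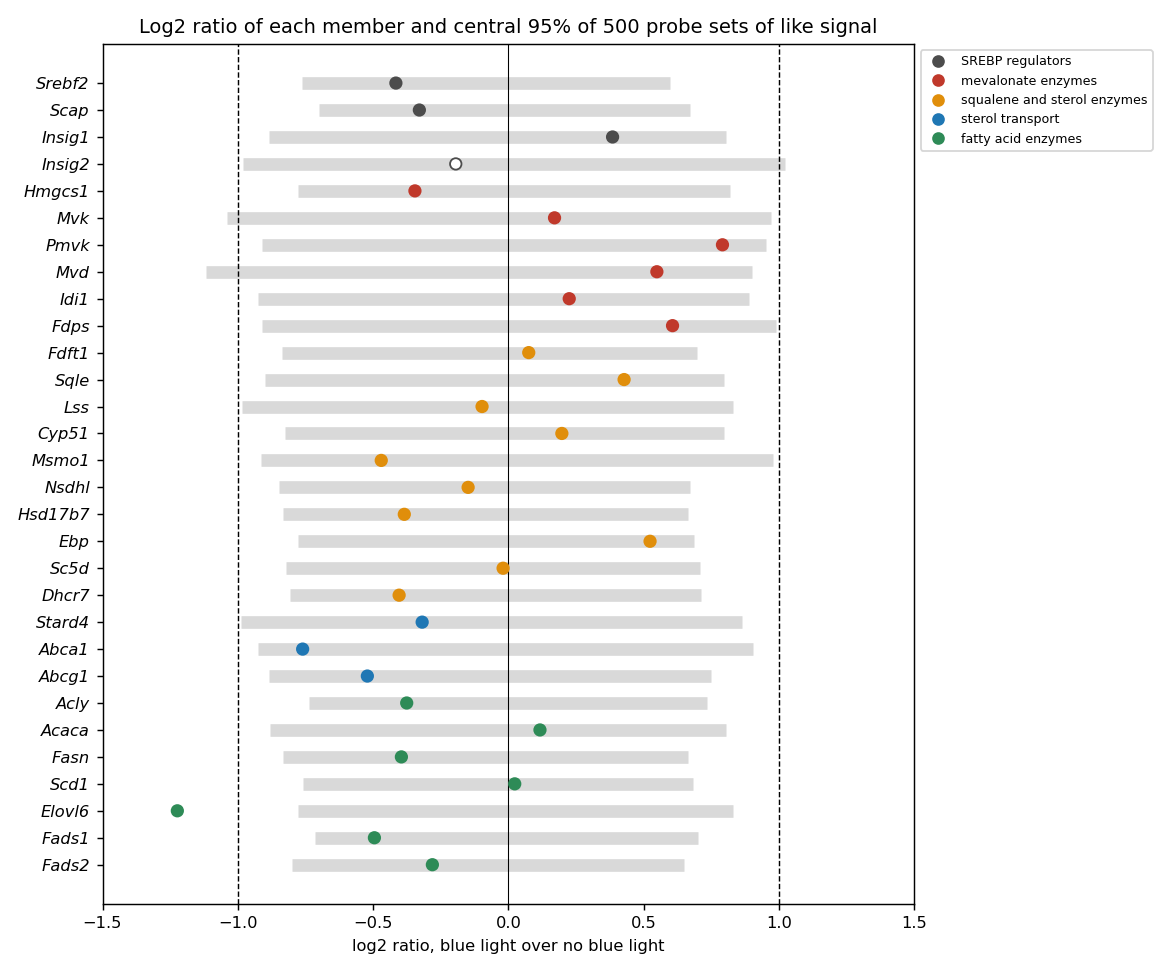
Log2 ratio of each measured member, blue light over no blue light, as a point, with a grey bar for the central 95% of the 500 probe sets closest in signal, and dashed lines at the fold cutoff; the open point is under the signal cutoff. Only Elovl6, at -1.22, lies outside its bar.

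All 3 sterol transport genes had lower signals with blue light, none past the cutoff. Abca1, which loads cholesterol onto lipid-poor apolipoprotein A-I, read 105 dark and 61.9 lit. Its ratio of 0.590, or -0.76 on the log2 scale, was the second lowest of the members, at percentile 5.6 of the probe sets of like signal, and became 0.667 with 24 added. Abcg1, the pump that exports cholesterol to formed high-density lipoprotein, had signals of 691 and 482, a ratio of 0.697. Stard4, a soluble sterol carrier, had signals of 244 and 196, a ratio of 0.802. The signals of Abca1 and Stard4 were under the 95th percentile of the negative controls, whereas those of Abcg1 exceeded it on both arrays. The median log2 ratio of the 3 genes was -0.52.

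Among the fatty acid genes Elovl6 differed from the rest. Elovl6, which lengthens palmitate toward stearate, read 699 dark and 299 lit. Its ratio of 0.428, or -1.22 on the log2 scale, was below those of all 500 probe sets of nearest signal. The call held under every scaling and signal cutoff tried and with 24 added, with log2 ratios from -1.27 to -1.16, but its signal with blue light was under the 95th percentile of the negative controls. Acly, which supplies cytosolic acetyl-CoA, and Fasn, the synthase that builds palmitate, had ratios of 0.771 and 0.760, the latter from signals of 1036 and 788. Acaca, which makes malonyl-CoA, had a ratio of 1.08. Scd1, the desaturase that makes oleate, had nearly equal signals, 4593 and 4667, and the sign of its log2 ratio of 0.023 turned under median scaling. Fads1, a desaturase of polyunsaturated fatty acids, had signals of 4359.7 and 3093 and a ratio of 0.709, at percentile 9.4 among its like. Its partner Fads2 had a ratio of 0.823. The median log2 ratio of the 7 measured genes was -0.38, with 5 below 0.

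**Figure D4:**
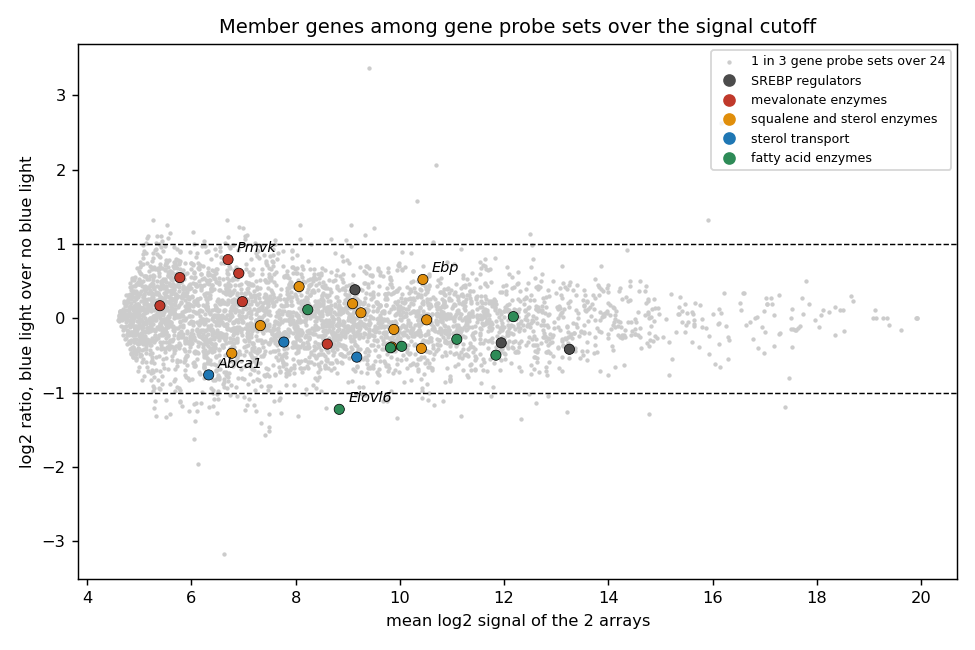
Log2 ratio of blue light over no blue light against the mean log2 signal of the 2 arrays, with members coloured by role and grey points for a sample of the gene probe sets over 24; dashed lines mark the fold cutoff. Elovl6 lies under the lower line, and the mevalonate enzymes with positive ratios lie toward low signal.

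The other genes around these pathways were taken from 4 lists with 98 genes, of which 89 had a probe set and 69 were over 24. Of the 69, blue light left 67 within the cutoff, with 1 higher and 1 lower, 1.45% each against 0.958% and 1.37% of all probe sets over 24, so the counts were near those of the array as a whole. Their median log2 ratio was 0.09, and 64 of the 69 lay inside the central 95% of probe sets of like signal. The lower one was Ch25h, which makes the oxysterol 25-hydroxycholesterol, a ligand of LXR that also binds INSIG. It read 297 dark and 108 lit, so that its ratio of 0.363 was at percentile 0.6 among probe sets of like signal, though both signals were under the 95th percentile of the negative controls. The higher one was Lpin1, a phosphatidate phosphatase that also acts on SREBP in the nucleus, with signals of 43.6 and 97.6. Its ratio of 2.24 became 1.80 with 24 added to both signals, under the cutoff. The lists were written with earlier results of these data known, so the calls of Ch25h and Lpin1 are not independent of that choice.

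In the list of sterol side branches, of 19 genes over 24, 10 were above 0 and 9 below on the log2 scale, with a median of 0.09. Besides Ch25h, Gramd1a, a transporter of sterol from the plasma membrane, was at a ratio of 0.559, with signals of 68.1 and 38.04. The 18 genes of SREBP processing and transport had 9 values above 0 and 9 below, and Sec24b, a coat protein of vesicles leaving the endoplasmic reticulum, had signals of 1067 and 583, a ratio of 0.546. The log2 ratio of Sec24b, -0.87, was outside the central 95% of its like, as was that of Mlxip, a partner of the factor MLX that was named after its value was seen, at -0.83. The LXR-linked list was mostly dim, with 5 of 13 measured genes over 24. Its largest log2 ratios were those of Rxrb, a partner receptor of LXR, at 0.47, and Smpdl3a, at -0.28, both from dim signals. None of the 5 was past the cutoff.

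The list of lipogenesis and elongation had 27 genes over 24, 17 above 0 and 10 below, with a median of 0.16 and 0 past the cutoff. Dgat1, which catalyses the last step of triglyceride synthesis, had signals of 72.6 and 36.8, a ratio of 0.507 just inside the cutoff. It was lower past the cutoff under median, quantile and loess scaling, but its ratio was 0.629 with 24 added to both signals. The log2 ratio of Dgat1, -0.98, lay inside the central 95% of its like, and both signals were under the 95th percentile of the negative controls. Fabp5, a fatty acid carrier, had signals of 385 and 742, a ratio of 1.93, and its log2 ratio of 0.95 lay outside the central 95% of its like, which ended at 0.82. The remaining enzymes of the elongation cycle that were over 24, singled out after their values were seen, did not share the lower signal of Elovl6. All 7 of the 11 listed that were over 24 had log2 ratios above 0, from 0.11 for Elovl1 to 0.46 for Elovl5, with a median of 0.30, and they stayed above 0 under the 3 scalings tried. They include the elongases Elovl1 and Elovl5, the dehydratases Hacd1, Hacd2 and Hacd3 and the reductases Hsd17b12 and Tecr. Their ratios, from 1.08 to 1.38, each lay inside the central 95% of the probe sets of like signal. With no signal cutoff, 9 of the 11 were above 0 and 2 below. The 2 below were Elovl2, at -0.70, and Elovl4, at -0.23, both from signals under 24.

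**Figure D5:**
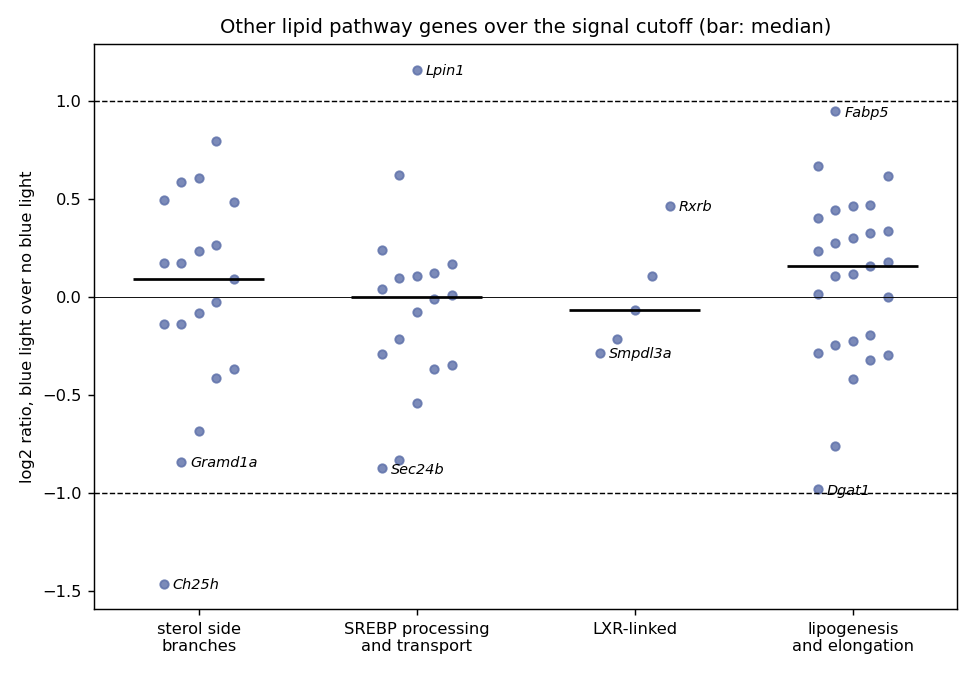
Log2 ratio of blue light over no blue light for the 69 other lipid pathway genes over 24, 1 point for each gene in 4 lists, with the bar at the median and dashed lines at the fold cutoff. Lpin1 lies above the upper line at 1.16 and Ch25h under the lower line at -1.46.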

How the data were processed

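The deposited values are log2 signals of 1 Clariom S mouse array for each condition. They were normalized for the study in the analysis software (version 3.2) of the service company that ran the arrays. The normalization and background steps of that software were not given in the sources used here. Of 28846 rows, 22206 were gene probe sets and 6640 were control rows, which no count includes. Symbols came from the platform annotation, with 19572 probe sets paired with 1 symbol, 0 with several and 2634 with none. The members and gene lists were chosen with earlier results of these data known.

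Signals were computed as powers of 2 of the deposited values. No test between conditions was possible with 1 array each, and the spread between cultures is unknown. Members were named in full where past the cutoff or among the 3 largest absolute log2 ratios of their role, and other listed genes where past the cutoff or among the 2 largest of their list. Alternatives were median, quantile and loess scaling (span 0.3), no signal cutoff, a signal over 100 on both arrays or over 24 on either, 24 added to both signals, the mean for each symbol and a fold cutoff of 1.5. Motifs were searched in RefSeq start-site windows of GRCm38.p6. Steps were tested on simulated data. Python 3.11.15 was used with numpy 2.4.6, pandas 2.3.3, statsmodels 0.14.6 and matplotlib 3.10.9.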

Additional observations from a re-analysis of the deposited data

How the results depend on the processing

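Elovl6 was the only member lower past the cutoff, and none was higher, under 8 of the 9 alternatives. The exception was a fold cutoff of 1.5, with 2 members higher and 2 lower. A signal over 100 on both arrays gave medians of -0.28 for all members and -0.020 for the mevalonate and sterol enzymes together, since 4 of the 6 mevalonate enzymes were then left out. Among the other listed genes the count past the cutoff was 2, but 1 with a signal over 100 on both arrays or with 24 added to both signals, where Lpin1 was lost. It was 15 of 69 at a fold cutoff of 1.5, with 8 higher (11.6%, against 7.55% of all probe sets) and 7 lower (10.1%, against 8.47%). Each scaling added Dgat1 as lower. No paired analysis was possible because each condition has 1 array, and no array could be left out. Signals under the 95th percentile of the negative controls limit several ratios of members over 24. Under it on both arrays were Pmvk, Mvd, Fdps, Mvk, Idi1, Sqle, Lss, Msmo1, Stard4, Abca1 and Acaca. Elovl6 was under it on the blue light array only.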
